A study of Mus musculus with 16 samples.

Results

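The comparison set fetal cortices of mice whose mother alone was exposed to ethanol against fetal cortices of mice whose father alone was exposed. Total RNA taken at gestational day 16 was sequenced in 16 libraries, and 8 of them belong here: 4 labelled maternal EtOH (2 male, 2 female) and 4 labelled paternal EtOH (2 male, 2 female), chosen by exposure label and set against each other with sex as a block. The remaining 8 libraries, from fetuses of 2 exposed parents (dual) or of 2 unexposed parents (control), did not enter the test and are quoted for orientation. The labels name no mouse strain, ethanol dose or timing of exposure. Nor do they tell whether the 2 replicates of a sex and exposure are different fetuses or litters, and p-values therefore reflect only library-to-library spread, which may be technical.

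Ethanol drunk by a pregnant female crosses the placenta and reaches the fetal brain directly. A father's exposure can reach the fetus only through his germ cells and seminal fluid, or by way of the mother. At this age the mouse cortex is a neurogenic epithelium with radial glia, intermediate progenitors and migrating neurons, covered by meninges and seeded with microglia and border macrophages. The contrast asks how the fetal cortical transcriptome differs by which parent was exposed, and it needs no unexposed group.

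The 4 male libraries held 15336566 to 17959337 counts each and the 4 female ones 32769462 to 35218456, so the sex block also took up depth. Sex labels held in all 8: the X-inactivation RNA Xist had 0 to 21 counts in males and 24877 to 27730 in females, while 4 Y-linked genes summed to 2248 to 3129 counts in males and 0 in females. The cortical label could not be checked in this way, as no other tissue was at hand. The 12 genes of cortical identity summed to 5070 to 5780 CPM (counts scaled to a common library total by TMM) after maternal and 5260 to 5790 CPM after paternal exposure. Genes of the striatum and ventral forebrain summed to 961 to 1280 CPM in the 8 libraries, and those of the thalamus and diencephalon to 348 to 520 CPM. Male paternal replicate 1 stood apart in RNA composition. Gene IDs without a symbol took 14.2% of its counts, against 2.05% to 4.69% in the maternal libraries and 2.27% to 5.49% in the other paternal ones, and protein-coding genes took 81.9%, against 91.3% or more in the other 7.

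Maternal and paternal libraries differed little. Of 20206 genes tested, edgeR called 1 (0.00495%), the predicted gene Gm47283, which was lower after maternal exposure, and called 0 (0%) higher, at a Benjamini-Hochberg adjusted p under 0.05. At an unadjusted p under 0.05 there were 862 genes (4.27%), 455 higher (2.25%) and 407 lower (2.01%), and DESeq2 called 3 genes, Gm47283, Rny1 and Lyve1, all lower. Maternal libraries lay above paternal ones without overlap in both sexes for 553 genes (2.74%) and below for 547 (2.71%). The median standard error of a log2 difference (maternal minus paternal, as throughout) was 0.119. For 13627 of the 13703 genes with a mean log2 CPM of at least 1 (99.4%), the pointwise 95% interval lay within a 2-fold difference either way, and for 12680 (92.5%) within 1.5-fold. A missed threshold does not show that the exposures act alike.

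Libraries were also compared as wholes. In males the median absolute log2 difference per gene was 0.131 between the maternal replicates and 0.125 between the paternal replicates, and 0.108 to 0.128 for the pairs of 1 maternal and 1 paternal library. In females it was 0.0886 between the maternal replicates and 0.0904 between the paternal replicates, and 0.0862 to 0.0923 across exposures. In males no pair across exposures was further apart than the maternal replicates, and in females the widest such pair was close to the paternal replicates.

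**Figure D1:**
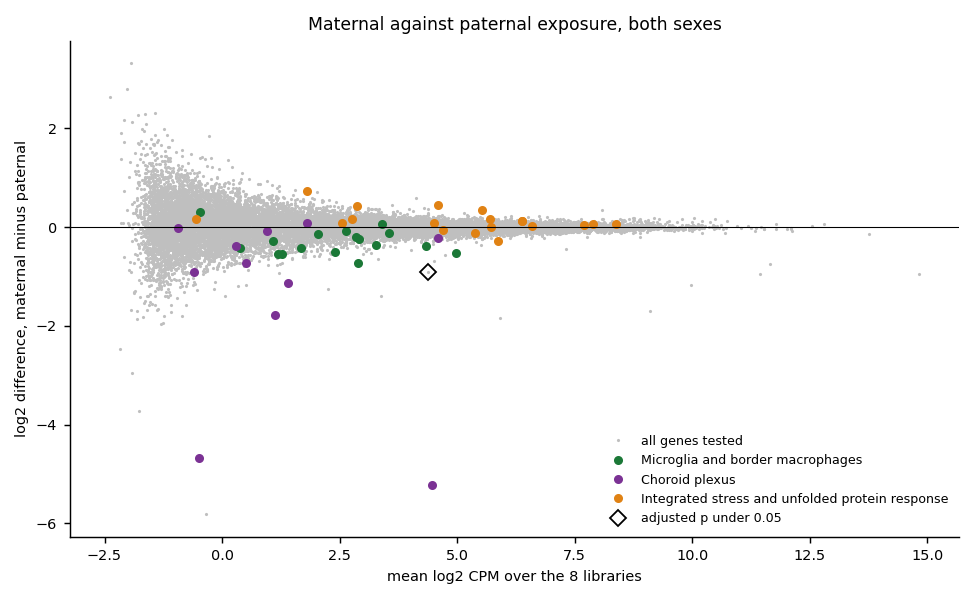
Log2 difference (maternal minus paternal, both sexes, edgeR) of each of the 20206 genes tested against its mean log2 CPM over the 8 libraries; each grey point is a gene, coloured points are members of 3 gene lists and the open diamond is the called gene. The cloud is narrower at higher expression, the diamond (Gm47283) sits at -0.91, and the lowest coloured points are the choroid plexus genes Ttr and Kcne2.

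Gm47283 is named because it was the gene called, and was singled out after its values were seen. It had 9.63 and 8.53 CPM in the male maternal libraries and 21 and 17.7 CPM in the female maternal ones, against 19.5 and 24.4 CPM in the male paternal libraries and 29.2 and 31.8 CPM in the female paternal ones. All 4 maternal libraries lay below the paternal libraries of their sex. The log2 difference was -0.91 ± 0.12 (standard error, 4 libraries per exposure; 95% interval -1.16 to -0.67; edgeR adjusted p = 0.00772). It was -1.28 ± 0.15 in males, where the gene was again the 1 called (0.00495%; adjusted p = 0.00347), and -0.66 ± 0.12 in females, where edgeR called 0 genes (0%) and its adjusted p was 0.589. Without female maternal replicate 2 the difference over both sexes was -0.92 with an adjusted p of 0.0715. Control libraries had 17.0 and 24.4 CPM in males and 17.1 and 25.4 CPM in females, and dual libraries 14.2 and 2.45 CPM in males and 17.2 and 19.4 CPM in females. The 2 male dual replicates had 222 and 32 counts, a wider ratio in CPM than between any maternal library and a paternal library of its sex.

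What was counted as Gm47283 is uncertain. GENCODE M21 places the gene at chrY:90784738-90816464 (GRCm38, plus strand), toward the end of the Y chromosome, where the X and Y chromosomes share a region. The female libraries had 606 to 1070 counts for it, while the 4 Y-linked genes above had 0. Its X-linked near copy Gm21887, which RefSeq lists as a synonym of Erdr1, holds 46.8% of the 1070 distinct 31-base windows of the Gm47283 transcripts. How reads matching both were assigned is not stated, so the 2 loci cannot be told apart. Gm21887, also chosen after seeing values, had 45 and 34 counts in male maternal and 145 and 108 in female maternal libraries, against 31 and 61 in male paternal and 212 and 227 in female paternal ones. The female groups did not overlap and the male groups did, and the log2 difference was -0.58 ± 0.19 (edgeR adjusted p = 0.999). The X-linked neighbour Mid1, whose product is a microtubule-associated ubiquitin ligase and which shares 0 of these windows, differed by -0.21 ± 0.12 (adjusted p = 0.999), with -0.51 in males and 0.03 in females.

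**Figure D2:**
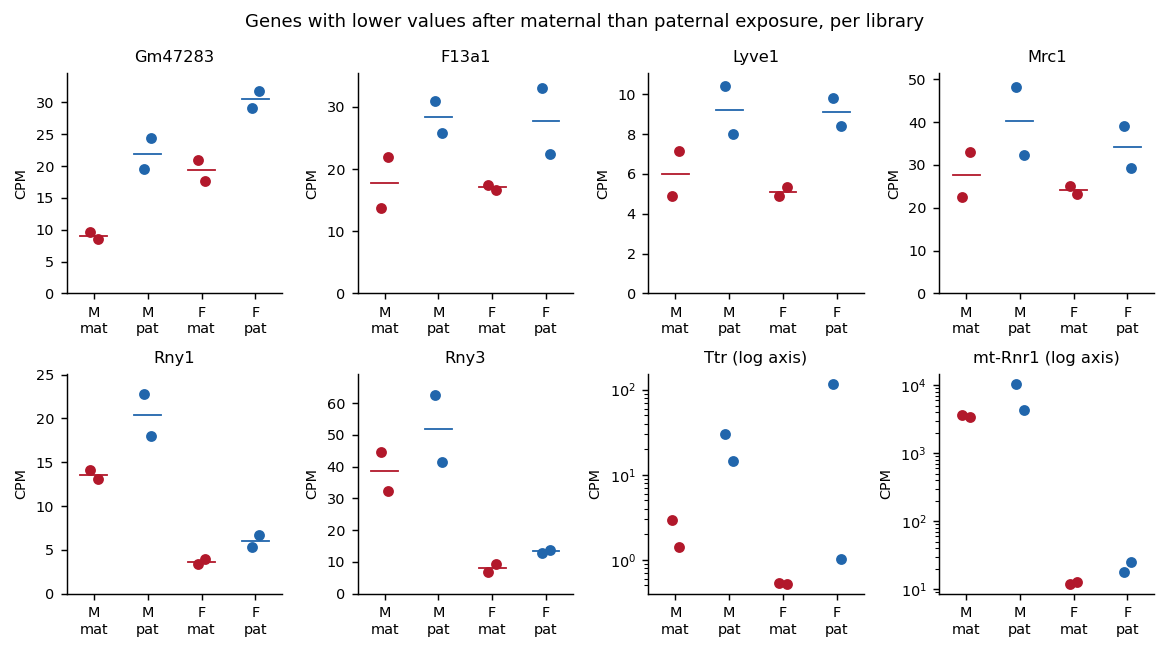
CPM (TMM-scaled) per library of 8 genes with lower values after maternal exposure; within each sex (M male, F female) the maternal libraries (mat, red) stand left of the paternal ones (pat, blue), points are libraries and bars are the means of 2, with log axes and no bars for Ttr and mt-Rnr1. Gm47283, F13a1, Lyve1, Rny1, Ttr and mt-Rnr1 are lower in all 4 maternal libraries within their sex, while Mrc1 and Rny3 overlap between the male groups.

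Among the genes of smallest p with lower values after maternal exposure were genes known from border macrophages, none of which edgeR called. Border macrophages sit in the meninges, along vessels and in the choroid plexus, and in mouse they carry the scavenger receptors Lyve1 and Mrc1, which microglia largely lack. F13a1, the coagulation factor XIII A chain, which these macrophages make, had 13.7 and 21.9 CPM in male maternal and 17.5 and 16.6 CPM in female maternal libraries, against 31 and 25.8 CPM in male paternal and 33.1 and 22.5 CPM in female paternal ones. All 4 maternal values were under all 4 paternal values, and the log2 difference was -0.69 ± 0.13 (edgeR adjusted p = 0.194; -0.67 in males, -0.70 in females). Lyve1, a hyaluronan receptor, had 4.87 and 7.16 CPM in male maternal and 4.88 and 5.34 CPM in female maternal libraries, against 10.4 and 8 CPM in male paternal and 9.81 and 8.43 CPM in female paternal ones. Again no library crossed over, with a difference of -0.73 ± 0.14 (adjusted p = 0.194). The mannose receptor Mrc1 had 22.4 and 33.0 CPM in male maternal and 25.1 and 23.1 CPM in female maternal libraries, against 48.3 and 32.4 CPM in male paternal and 39.2 and 29.3 CPM in female paternal ones. Its male groups overlapped by a narrow margin, and the difference was -0.52 ± 0.12 (adjusted p = 0.592). Dab2, an endocytic adaptor that macrophages and other cells express, had 26.2 to 29.5 CPM after maternal and 31.1 to 38.2 CPM after paternal exposure (-0.30 ± 0.07, adjusted p = 0.771). F13a1 and Dab2 were not on the list of macrophage genes described next.

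The calls of F13a1 and Lyve1 depended on single libraries, and that of Lyve1 also on the tool. DESeq2 called Lyve1 (adjusted p = 0.0159). With edgeR, leaving out each library in turn moved the adjusted p of Lyve1 between 0.035 and 1 and that of F13a1 between 0.0168 and 0.752, with lower maternal values each time. Lyve1 passed without male paternal replicate 2 (0.035) or male maternal replicate 2 (0.0372), and F13a1 without male maternal replicate 2 (0.0168) or female paternal replicate 2 (0.0334). The control libraries reached below the maternal ones in females and stayed below the highest paternal ones: Lyve1 had 8.94 and 7.59 CPM in male controls and 0.482 and 5.29 CPM in female ones, and F13a1 25.2 and 15.9 CPM in male controls and 3.14 and 14.7 CPM in female ones.

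The list of microglia and border macrophage genes had mostly lower fitted values after maternal exposure. It includes Lyve1, picked above for its small p, so its counts are not separate support. All 17 listed genes were tested, edgeR called 0 and DESeq2 1 (Lyve1), and 15 had lower and 2 higher fitted values after maternal exposure, with 12 lower in both sexes (70.6%, where 25.5% of all genes were). At an unadjusted p under 0.05 there were 6 lower (2.01% of all genes were) and 0 higher. Without overlap in both sexes 3 (Lyve1, Laptm5 and Csf1r) were lower, as were 2.71% of all genes. The median difference was -0.36, with -0.26 in males and -0.27 in females, beside 0.001 over all genes. It ran from -0.43 to -0.20 when each library was left out, and was -0.20 without male maternal replicate 1. Csf1r, the colony-stimulating factor receptor that macrophages and microglia need to survive, differed by -0.38 ± 0.13, the lysosomal protein gene Laptm5 by -0.36 ± 0.11 and the complement gene C1qa by -0.50 ± 0.18. Cx3cr1 (-0.11 ± 0.11), P2ry12 (-0.15 ± 0.17) and Tmem119 (-0.27 ± 0.21), of which P2ry12 and Tmem119 are known as microglial rather than border markers, lay closer to 0. They were named in part after their values were seen, and the border genes above for their small p. The difference between border and microglial genes was not tested. In bulk RNA, fewer cells of a type and less RNA per cell cannot be told apart.

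Markers of the tissues around the cortex varied beside these genes, and their part in the result was not tested. The choroid plexus list (11 of 12 genes tested) summed to 43.8 and 34.7 CPM in male maternal and 31.3 and 29.7 CPM in female maternal libraries, against 70.8 and 53.1 CPM in male paternal and 178 and 33.2 CPM in female paternal ones. Maternal sums were the lower within each sex (exact permutation test within sex, two-sided, p = 0.0556, the smallest these libraries allow; adjusted p = 0.388 over 21 composition measures). The meninges list summed to 1200 and 979 CPM in male maternal and 825 and 768 CPM in female maternal libraries, against 1080 and 892 CPM in male paternal and 1130 and 834 CPM in female paternal ones (exact permutation p = 0.722). The groups overlapped in males, where the list's median difference was 0.10, and not in females, where it was -0.34. Microglia and border macrophage genes summed to 101 and 137 CPM in male maternal and 119 and 110 CPM in female maternal libraries, against 165 and 134 CPM in male paternal and 158 and 133 CPM in female paternal ones (exact permutation p = 0.111).

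Ttr, the transthyretin gene that marks choroid plexus epithelium, had the largest fitted difference of the genes named. It had 2.92 and 1.43 CPM in male maternal and 0.529 and 0.525 CPM in female maternal libraries, against 29.9 and 14.4 CPM in male paternal and 118 and 1.01 CPM in female paternal ones. Female paternal replicate 1 exceeded its own replicate by far more than that replicate exceeded the female maternal libraries, and that replicate lay below both male maternal ones. The log2 difference was -5.22 ± 0.98 (edgeR adjusted p = 0.194), and between -6.09 and -2.71 when each library was left out. It passed the threshold without female paternal replicate 1 (-2.71, adjusted p = 0.0143) or female paternal replicate 2 (-5.82, adjusted p = 9.7e-05). The chloride channel gene Clic6 (-1.78 ± 0.46) and the water channel gene Aqp1 (-1.13 ± 0.38) of the same epithelium also peaked in female paternal replicate 1, at 6.52 and 6.63 CPM, as did the potassium channel subunit gene Kcne2 at 2.91 CPM, which was at most 0.119 CPM in the maternal libraries. The lipid enzyme gene Enpp2, which other cells make too, differed by -0.22 ± 0.12. The choroid plexus median was -0.72 with all libraries and -0.21 without female paternal replicate 1. Control libraries ranged from 0.181 to 61.8 CPM for Ttr.

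A pair of small non-coding RNAs was next. Y RNAs are short transcripts of RNA polymerase III that bind the Ro60 protein and take part in RNA quality control, and mouse has Rny1 and Rny3, which lie close together on chromosome 6. Both are among the 12 lower genes named, and their sequences are printed to show the stretches they share, in capitals (runs of at least 8 bases found in both, 28 bases in all, as DNA letters, 5′ to 3′).
Rny1 (chr6:47788069-47788180, GRCm38, minus strand, GENCODE M21): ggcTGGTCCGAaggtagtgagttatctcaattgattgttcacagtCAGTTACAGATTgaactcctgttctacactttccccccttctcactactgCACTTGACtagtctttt
Rny3 (chr6:47781624-47781725, GRCm38, plus strand, GENCODE M21): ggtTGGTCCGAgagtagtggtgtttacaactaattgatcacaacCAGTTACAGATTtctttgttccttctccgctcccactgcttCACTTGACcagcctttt

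Rny1 had 14.1 and 13.1 CPM in male maternal and 3.41 and 3.91 CPM in female maternal libraries, against 22.8 and 18.0 CPM in male paternal and 5.37 and 6.71 CPM in female paternal ones. The groups did not overlap in either sex, and males were above females at either exposure. The log2 difference was -0.64 ± 0.12 with edgeR (adjusted p = 0.194), and DESeq2 called the gene (adjusted p = 0.00774), as did edgeR without male paternal replicate 2 (adjusted p = 0.03). Rny3 had 44.7 and 32.4 CPM in male maternal and 6.67 and 9.28 CPM in female maternal libraries, against 62.6 and 41.4 CPM in male paternal and 12.9 and 13.7 CPM in female paternal ones. Its male groups overlapped, and the difference was -0.56 ± 0.13 (edgeR adjusted p = 0.592). Bc1, a neuronal RNA of the same polymerase, differed by 0.03 ± 0.12, a value whose sign turned with the fit (-0.09 with 4 group means). Such short RNAs are only partly recovered by a total RNA protocol, and Y RNAs have pseudogene copies, so their counts can depend on fragment size and on the handling of reads with several matches.

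Other transcripts that lay lower after maternal exposure were high in male libraries and highest in male paternal replicate 1. The mitochondrial ribosomal RNA mt-Rnr1 had 3620 and 3430 CPM in male maternal and 12.1 and 13 CPM in female maternal libraries, against 10600 and 4340 CPM in male paternal and 18.0 and 25 CPM in female paternal ones (-0.96 ± 0.18, edgeR adjusted p = 0.194). Maternal values were lower within each sex, and males lay far above females at either exposure. With each library left out in turn the difference ran from -1.20 to -0.53. The -1.20 came without male paternal replicate 2, which left replicate 1 as the only male paternal library. mt-Rnr2 had 4100 and 3930 CPM in male maternal and 73.3 and 83.3 CPM in female maternal libraries, against 12100 and 5240 CPM in male paternal and 71.2 and 128 CPM in female paternal ones (-0.75 ± 0.20). Its female groups overlapped. Mir6236 is the locus of a microRNA whose mature form is listed by RefSeq (GRCm38.p6, chr9:110281353-110281371, plus strand), with the seed (bases 2 to 8) in capitals.
mmu-miR-6236: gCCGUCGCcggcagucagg

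Mir6236 had 548 and 487 CPM in male maternal and 0.176 and 0.175 CPM in female maternal libraries, against 2710 and 709 CPM in male paternal and 0.219 and 0.178 CPM in female paternal ones (-1.69 ± 0.33, edgeR adjusted p = 0.206). Lars2, the mitochondrial leucyl-tRNA synthetase gene, had 807 and 819 CPM in male maternal and 22.2 and 19.1 CPM in female maternal libraries, against 5200 and 1200 CPM in male paternal and 21.4 and 21.6 CPM in female paternal ones (-1.17 ± 0.37). For Mir6236 the female libraries were all near 0, and for Lars2 the female groups overlapped. With each library left out in turn, Mir6236 ran from -2.34, without male paternal replicate 2, to -0.45. These 4 transcripts moved with the share of counts on IDs without a symbol. That share was 4.69% and 4.52% in male maternal and 14.2% and 5.49% in male paternal libraries. The most counted such ID took 2.6% and 2.58% in male maternal and 12.3% and 3.58% in male paternal libraries, against 0.0702% to 0.0828% in female ones. Whether reads counted as Mir6236 and Lars2 came from the microRNA and the synthetase mRNA was not tested. Nor was the part of RNA composition in the result. The mitochondrially encoded mRNAs, made from the same polycistronic transcript as the mitochondrial rRNAs, took 0.921% to 1.37% of counts after maternal and 1.15% to 1.22% after paternal exposure. Of 12 tested, 11 had lower and 1 higher fitted values after maternal exposure, with a median of -0.10, and mt-Nd3 was the lowest named at -0.63 ± 0.19. That median ran from -0.21 to 0.01 when each library was left out.

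The rest of the 12 lower genes named were of smaller difference. Ddit4, a stress-induced inhibitor of mTORC1, had 45.9 to 59.1 CPM after maternal and 58.7 to 66.8 CPM after paternal exposure (-0.29 ± 0.07, edgeR adjusted p = 0.592). Nedd9, a scaffold of focal adhesions, had 39.4 to 45.5 CPM after maternal and 47.8 to 51.3 CPM after paternal exposure (-0.24 ± 0.06, adjusted p = 0.684). Pura, a single-stranded nucleic acid binding protein of neurons, had 43.6 to 51.4 CPM after maternal and 50 to 60.8 CPM after paternal exposure (-0.22 ± 0.06, adjusted p = 0.879). For Nedd9 the 2 exposures did not overlap at all, and for Pura they did not within each sex.

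No gene was called higher after maternal exposure, and the 12 named as highest by p differed by 0.16 to 0.73 on the log2 scale. D10Wsu102e also led a single exposure against control in earlier results of these data. It had 306 and 265 CPM in male maternal and 304 and 326 CPM in female maternal libraries, against 207 and 279 CPM in male paternal and 234 and 221 CPM in female paternal ones. Male groups overlapped and female groups did not (0.35 ± 0.08, edgeR adjusted p = 0.369), and without 1 library the adjusted p ran from 0.000483 to 1, passing only without male paternal replicate 2 (0.47). Aldh1l2, the mitochondrial 10-formyltetrahydrofolate dehydrogenase of one-carbon metabolism, had 71.5 and 72.7 CPM in male maternal and 65.8 and 66.6 CPM in female maternal libraries, against 62.4 and 59.4 CPM in male paternal and 60.4 and 56.8 CPM in female paternal ones. All maternal values were above all paternal ones, with a difference of 0.21 ± 0.05 (adjusted p = 0.592). These 2 genes lie tail to tail on opposite strands of chromosome 10 and overlap by 1056 bases in GENCODE M21. The strand setting of the counting is not stated, so reads in the overlap may not have been told apart and the 2 values may not be independent.

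The transcriptional repressor gene Bcl6, which promotes the switch of cortical progenitors to neurons, had 21.1 and 22.1 CPM in male maternal and 23.0 and 22.9 CPM in female maternal libraries, against 19.8 and 15.5 CPM in male paternal and 13.9 and 19.2 CPM in female paternal ones. Maternal values were above all paternal ones (0.39 ± 0.10, edgeR adjusted p = 0.895). Fat4, the large protocadherin receptor of planar polarity and progenitor growth, had 643 to 685 CPM after maternal and 563 to 639 CPM after paternal exposure (0.17 ± 0.04, adjusted p = 0.81). Lrp1, an endocytic lipoprotein receptor, had 902 to 957 CPM after maternal and 776 to 885 CPM after paternal exposure (0.17 ± 0.04). Neither overlapped between exposures.

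Most other higher genes encode giant proteins: the cytoskeletal linkers Dst (0.19 ± 0.05) and Syne2 (0.19 ± 0.05), the ribosome assembly ATPase Mdn1 (0.16 ± 0.05), the ubiquitin ligase Ubr4 (0.16 ± 0.05) and the histone methyltransferase Kmt2d (0.17 ± 0.05). Dapk3, a cytoskeletal kinase, differed by 0.28 ± 0.08. Lengths were compared after the names were seen. A longest transcript of 5619 bases or more, the top 20% of 12450 protein-coding genes, belongs to 9 of the 12 higher genes and 1 of the 12 lower ones. The lower ones include the short non-coding RNAs Rny1, Rny3, Mir6236 and mt-Rnr1, which lie outside that set. Over 5 classes of transcript length, the median maternal minus paternal difference ran from -0.0081 to 0.0029, whereas the median of male maternal replicate 1 minus replicate 2 ran from 0.0612 in the shortest to -0.0447 in the longest class. The same medians were 0.0745 and -0.0317 for the male paternal replicates, -0.0022 and -0.0135 for the female maternal ones and 0.0308 and -0.003 for the female paternal ones.

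**Figure D3:**
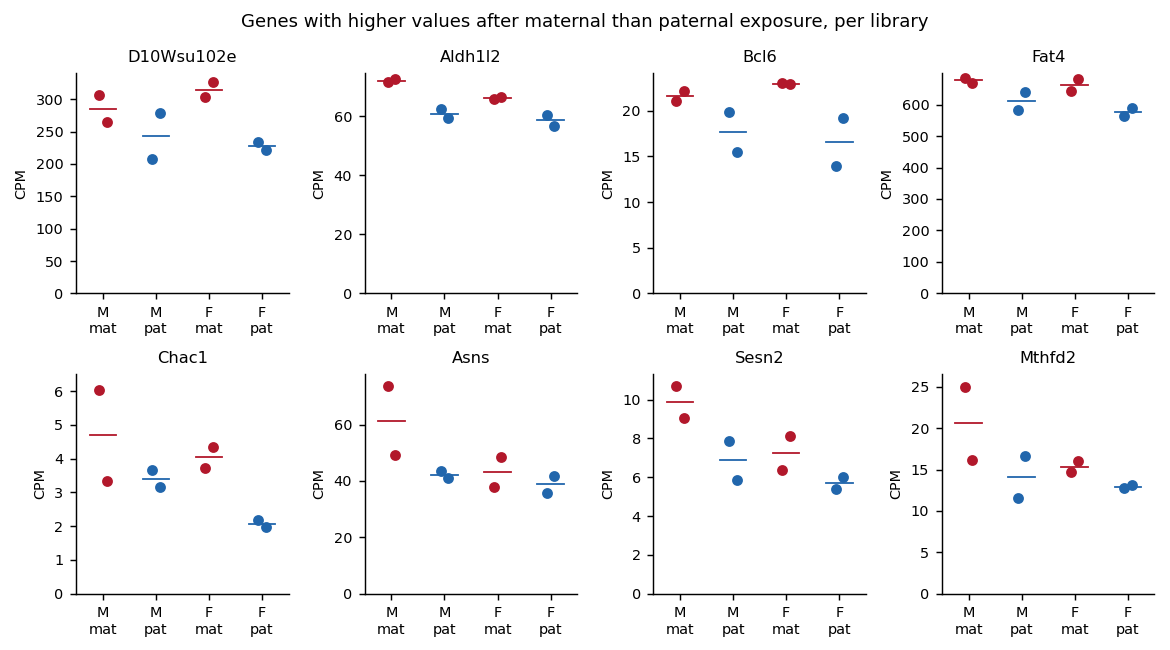
CPM (TMM-scaled) per library of 8 genes with higher values after maternal exposure, laid out with maternal (mat, red) left of paternal (pat, blue) within each sex; points are libraries and bars the means of 2. Aldh1l2, Bcl6 and Fat4 are above the paternal libraries in all 4 maternal ones, and the lower row (Chac1, Asns, Sesn2 and Mthfd2) has its highest value in male maternal replicate 1.

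Genes of the integrated stress and unfolded protein responses leaned higher after maternal exposure, with 1 library ahead. In the integrated stress response the transcription factor ATF4 turns on amino acid synthesis and transport under stress. Of 19 genes tested, 0 were called, 15 had higher and 4 lower fitted values, and 11 were higher in both sexes (57.9%, where 25.9% of all genes were). At an unadjusted p under 0.05 there were 4 higher (2.25% of all genes were) and 1 lower (2.01% of all genes), the last being Ddit4. The median difference was 0.09, with 0.16 in males and 0.03 in females, and 0.05 without male maternal replicate 1. Chac1, a glutathione-degrading enzyme and ATF4 target, had 6.03 and 3.34 CPM in male maternal and 3.73 and 4.35 CPM in female maternal libraries, against 3.65 and 3.15 CPM in male paternal and 2.19 and 1.96 CPM in female paternal ones. Females did not overlap and males did (0.73 ± 0.20, edgeR adjusted p = 0.978). Sesn2, a leucine sensor upstream of mTORC1, had 10.7 and 9.06 CPM in male maternal and 6.38 and 8.11 CPM in female maternal libraries, against 7.89 and 5.86 CPM in male paternal and 5.37 and 6.03 CPM in female paternal ones, without overlap in either sex (0.43 ± 0.13).

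Asparagine synthetase, Asns, had 73.6 and 49.1 CPM in male maternal and 37.8 and 48.6 CPM in female maternal libraries, against 43.4 and 41.1 CPM in male paternal and 35.9 and 41.6 CPM in female paternal ones (0.34 ± 0.11, edgeR adjusted p = 0.999). Male maternal replicate 1 was the highest of all 8 for Chac1, Sesn2 and Asns. The same library was highest for the transcription factors Atf5 (43.3 CPM, 0.44 ± 0.16) and Atf4 (111 CPM, 0.13 ± 0.09), the serine synthesis enzyme Phgdh (70.0 CPM, 0.16 ± 0.09) and the mitochondrial folate enzymes Mthfd2 (25 CPM, 0.38 ± 0.13) and Shmt2 (58.6 CPM, 0.20 ± 0.10). An unexposed library, male control replicate 1, had 7.7 CPM of Chac1, 10.1 CPM of Sesn2 and 63.7 CPM of Asns. The other controls had 1.95 to 2.74, 3.85 to 5.4 and 40.4 to 46.9 CPM. For Phgdh that library had 44.2 CPM, below female control replicate 1 at 60 CPM. The endoplasmic reticulum chaperone Hspa5, which belongs to the unfolded protein response, differed by 0.06 ± 0.05. In the wider list of 17 folate and one-carbon genes the median was 0.01, with 1 gene (Mthfd2) higher and 1 (Ahcy) lower at an unadjusted p under 0.05.

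Cholesterol synthesis genes leaned slightly lower after maternal exposure. Of 21 tested, 0 were called, 18 had lower and 3 higher fitted values, and 16 were lower in both sexes (76.2%, against 25.5% of all genes). At an unadjusted p under 0.05, 5 were lower (2.01% of all genes were) and 0 higher. Without overlap in both sexes 5 were lower, as were 2.71% of all genes. The median was -0.06, and it stayed between -0.09 and -0.04 when each library was left out. Insig1, the sterol-sensing anchor of SREBP, had 58.7 to 67.5 CPM after maternal and 68.1 to 71.3 CPM after paternal exposure, without overlap (-0.15 ± 0.05, edgeR adjusted p = 0.999). Lanosterol synthase, Lss, had 55.8 to 68.4 CPM after maternal and 70.0 to 73.3 CPM after paternal exposure, again without overlap (-0.16 ± 0.06). The isoprenoid enzymes Idi1 (-0.21 ± 0.08) and Fdps (-0.39 ± 0.17) and the entry enzyme Hmgcs1 (-0.12 ± 0.06) were also lower, and their regulator Srebf2 stood at 0.03 ± 0.04.

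Nuclear-encoded genes of oxidative phosphorylation had lower fitted values after maternal exposure in 61 of 82 and higher in 21. In both sexes 37 were lower (45.1%, against 25.5% of all genes). At an unadjusted p under 0.05, 7 were lower (2.01% of all genes were), and the median was -0.03. Named members were Atp5l (-0.21), Atp5c1 (-0.14) and Ndufc2 (-0.15). Cytoplasmic ribosomal protein genes had lower values in 57 of 80, where 10021 of all 20206 genes did. Their median was -0.02, with 0 genes at an unadjusted p under 0.05. None of these genes was called.

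Clustered protocadherins are the cell-surface labels by which neurons tell their own branches from others. Of 54 tested (of 56 listed), 42 had higher and 12 lower fitted values. In both sexes 25 were higher (46.3%, against 25.9% of all genes). At an unadjusted p under 0.05, 5 were higher (2.25% of all genes were), 0 were called and the median was 0.09. Pcdhb15 had 6.82 and 6.62 CPM in male maternal and 6.29 and 5.37 CPM in female maternal libraries, against 3.72 and 4.39 CPM in male paternal and 5.73 and 3.47 CPM in female paternal ones (0.50 ± 0.17, edgeR adjusted p = 0.999). Males did not overlap and females did. Pcdhb17 (0.20 ± 0.08), Pcdhb18 (0.22 ± 0.09) and Pcdhb22 (0.22 ± 0.08) followed, and as members of a family of close copies in a row their counts are uncertain and not independent. Synaptic adhesion and scaffold genes had a median of 0.01. At an unadjusted p under 0.05, 3 of 26 were higher (2.25% of all genes were): Shank1 at 0.13, Shank2 at 0.13 and Shank3 at 0.12. The NMDA receptor subunit Grin2b stood at 0.18 ± 0.06.

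**Figure D4:**
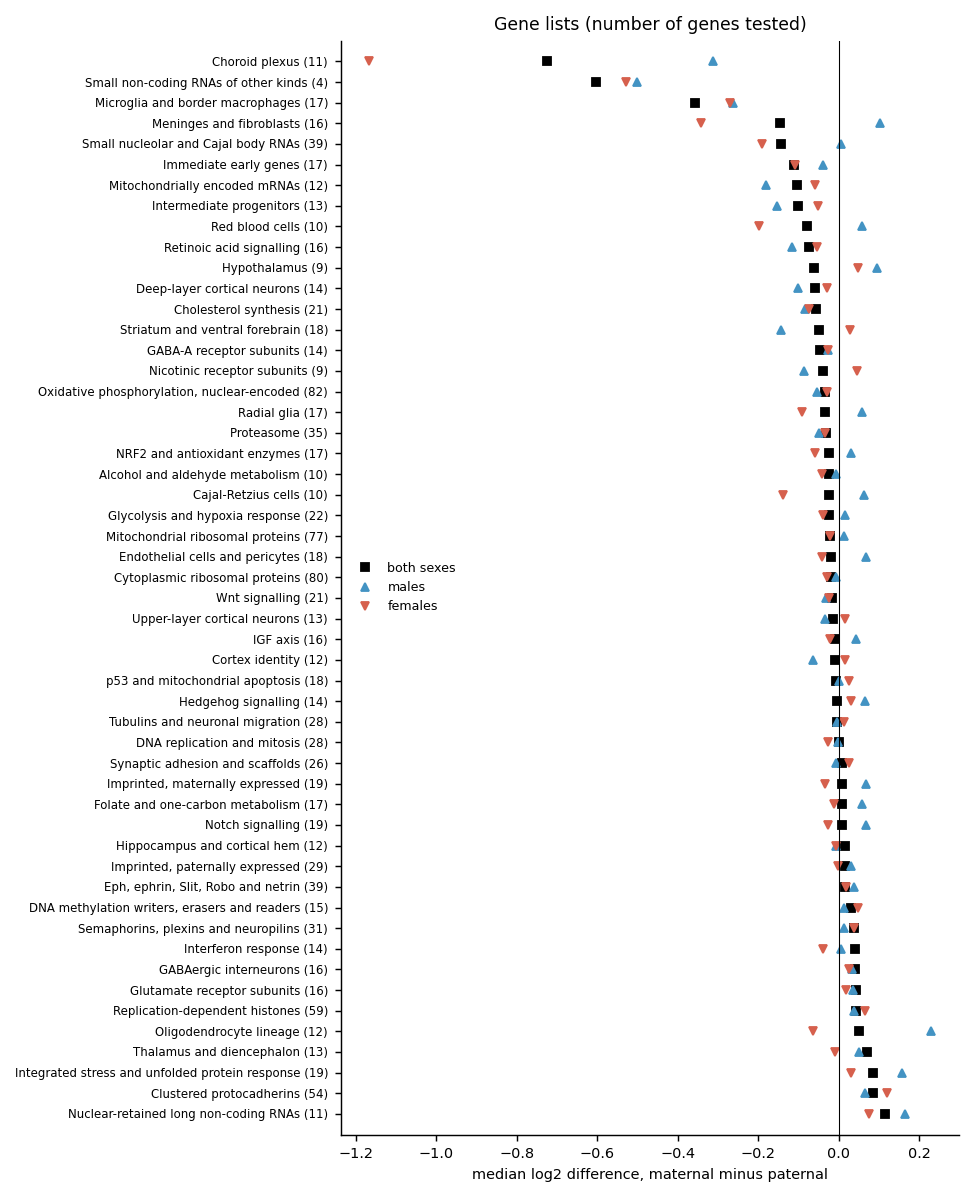
Median log2 difference (maternal minus paternal) of the tested genes of each list, for both sexes (squares), males (upward triangles) and females (downward triangles), with the number of genes tested in brackets. Choroid plexus (-0.72), small non-coding RNAs (-0.60) and microglia and border macrophages (-0.36) lie apart at the left, and the remaining lists lie between -0.15 and 0.12 for both sexes.

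Of 12 genes of cortical identity the median difference was -0.01, with 6 fitted values above and 6 below 0. Pax6, the radial glial transcription factor, had 31.9 to 43.9 CPM after maternal and 39.5 to 48.5 CPM after paternal exposure (-0.21 ± 0.08, edgeR adjusted p = 0.999), and Eomes, the factor of intermediate progenitors, had 60.5 to 84.2 CPM after maternal and 71.9 to 79.2 CPM after paternal exposure (-0.18 ± 0.08). Both passed an unadjusted p of 0.05 and neither was called. The cortical homeobox gene Emx1 differed by 0.10 ± 0.09 and the migration protein gene Dcx by -0.03 ± 0.04. Genes of intermediate progenitors, the dividing daughters of radial glia, had lower fitted values after maternal exposure in 11 of 13 and higher in 2. In both sexes 8 were lower (61.5%, against 25.5% of all genes). At an unadjusted p under 0.05, 1 was lower (2.01% of all genes were), 0 were called and the median was -0.10. List medians were -0.03 for radial glia, -0.06 for deep-layer neurons, -0.02 for upper-layer neurons, 0.04 for interneurons and -0.02 for endothelial cells and pericytes. Alcohol and aldehyde metabolism had a median of -0.02 over 10 genes, with 0 at an unadjusted p under 0.05.

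The maternal against paternal differences of male and female fetuses were weakly correlated. Across the 13703 genes with a mean log2 CPM of at least 1, the male and female log2 differences, which share no library, had a Pearson r of 0.104 and a Spearman rho of 0.0378, and 52% had the same sign (genes are not independent replicates). With 2 libraries per sex and exposure, such low values do not show that the sexes differ. Of 105 such genes with an unadjusted p under 0.01 in males, 59 (56.2%) had the same sign in females. Of 92 in females, 53 (57.6%) had the same sign in males. In all, 979 genes (4.85%) passed an unadjusted p of 0.05 in males, 545 higher (2.7%) and 434 lower (2.15%), and 639 (3.16%) in females, 287 higher (1.42%) and 352 lower (1.74%).

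**Figure D5:**
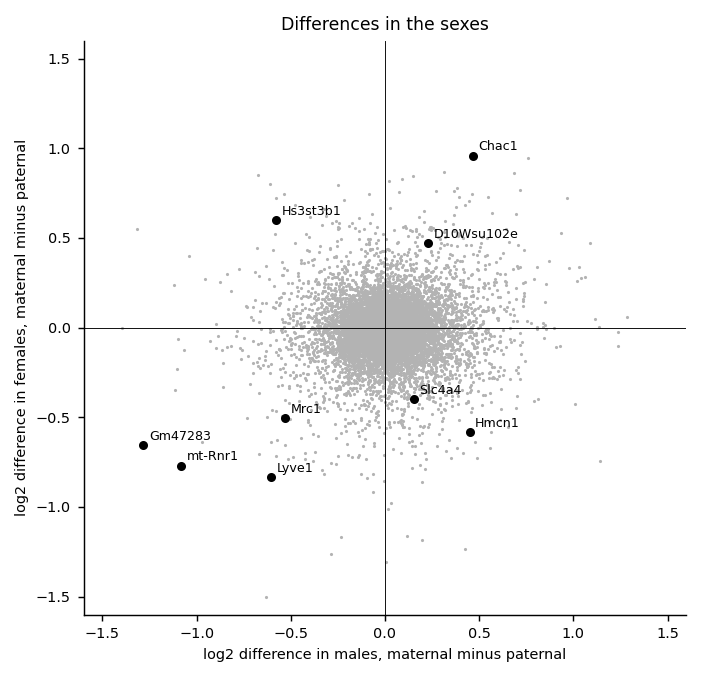
Log2 difference (maternal minus paternal) of genes in males (horizontal axis) against females (vertical axis), for genes with a mean log2 CPM of at least 1; black points are named genes, and 8 genes lie outside the axis limit of 1.6. The cloud is round (Pearson r of 0.104); Gm47283, mt-Rnr1, Lyve1 and Mrc1 lie in the lower left, Chac1 and D10Wsu102e in the upper right, and Hs3st3b1, Hmcn1 and Slc4a4 in the quadrants where the sexes differ in sign.

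In males the genes of smallest p after Gm47283 included mt-Rnr1, mt-Rnr2, Mir6236 and Lars2, described above. Trim66, a chromatin reader, had 8.23 and 5.49 CPM in male maternal against 3.12 and 3.10 CPM in male paternal libraries (1.14 ± 0.25), with 0.01 in females. The thalamic homeobox gene Gbx2 had 2.56 and 2.86 CPM in male maternal against 0.893 and 1.30 CPM in male paternal libraries (1.28 ± 0.36). The phosphatase gene Dusp26 had 30.0 and 29.8 CPM in male maternal against 19.6 and 23.9 CPM in male paternal libraries (0.45 ± 0.12), and the transcription factor gene Ebf1 had 60.1 and 84.4 CPM in male maternal against 107 and 96.4 CPM in male paternal libraries (-0.49 ± 0.12). None of these 4 was called.

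In females edgeR and DESeq2 each called 0 genes. Gm47283, Ttr, Lyve1 and D10Wsu102e, described above, were among the genes of smallest p, beside the following. Mc4r, the melanocortin receptor of feeding control, had 14.0 and 15.2 CPM in female maternal against 7.65 and 9.71 CPM in female paternal libraries (0.76 ± 0.15), with 0.07 in males. Usmg5, a small subunit of the mitochondrial ATP synthase, had 39.8 and 39.2 CPM in female maternal against 50.7 and 50.4 CPM in female paternal libraries (-0.35 ± 0.07), with 0.03 in males. Slc4a4, the sodium bicarbonate cotransporter, had 38.1 and 41.7 CPM in female maternal against 56.7 and 48.7 CPM in female paternal libraries (-0.40 ± 0.09). The neuron navigator gene Nav2 differed by 0.27 and the neonatal Fc receptor gene Fcgrt, which macrophages also express, by -0.71.

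The test of the sex difference itself (male minus female difference) called 0 genes (0%) with edgeR and 0 with DESeq2, and 748 (3.7%) passed an unadjusted p of 0.05, 435 (2.15%) with the more positive difference in males and 313 (1.55%) in females. The smallest p belonged to Hs3st3b1, a heparan sulfate sulfotransferase, with 7.68 and 9.18 CPM in male maternal against 13.3 and 11.9 CPM in male paternal libraries, and 11.3 and 12.9 CPM in female maternal against 6.47 and 9.50 CPM in female paternal ones (-1.18, edgeR adjusted p = 1). The sexes lay on opposite sides of 0. The extracellular matrix genes Hmcn1 (1.03) and Eln (0.80), the IGF-binding protein Igfbp5 (0.39), the RNA-binding protein Ralyl (0.52) and Slc4a4 (0.55) had the more positive difference in males, and the Nogo receptor Rtn4r (-0.61), the ligand Wnt7b (-0.44) and the repressor Scrt1 (-0.35) in females. Gm47283 had a sex difference of -0.63 (adjusted p = 1).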

How the data were processed

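Each library had its own table of raw read counts, deposited by the authors, with 55359 gene IDs. By ID, 52083 matched a symbol in a list of gene names or, failing that, in GENCODE M21, and 3276 did not. Trimmomatic, STAR, featureCounts and the build GRCm39 (mm39) are named in the submitters' processing notes, without versions, annotation release, strand setting or the handling of reads with several matches. GENCODE M21 lies on GRCm38, another build, and served for the remaining names and for classes, lengths, overlaps and Y RNA sequences, with its own coordinates. Total counts of the 8 libraries compared are within the ranges given above, and 0 columns of per-sample values were left unused.

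Counts of the 8 libraries were analysed in R 4.3.3 with edgeR 4.0.16 (filterByExpr over the 4 groups, minimum count 10 and minimum total 15; TMM; glmQLFit and glmQLFTest, two-sided), in a model of sex and exposure (5 residual degrees of freedom, median prior degrees of freedom 12.84). Males, females and the sex difference came from a fit of 4 group means. P-values were adjusted by Benjamini-Hochberg over all 20206 genes tested, with a threshold of 0.05. CPM are scaled by TMM factors over all 16 libraries. Composition measures were tested by exact permutation of exposure within sex (36 arrangements, two-sided). Members of gene lists were counted with no test of the list, other than the composition measures, which include the summed CPM of 13 lists.

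Named genes are the 12 of smallest p per direction with equal sign in males and females, mean log2 CPM no lower than 1 and no predicted-gene name, up to 5 per direction for males, females and the sex difference, up to 4 members of each list by p, cortex identity genes, and genes that led a single exposure earlier. Cx3cr1, P2ry12, Tmem119, Enpp2, Atf4, Atf5, Phgdh, Hspa5, Hmgcs1, Srebf2, C1qa, Kcne2, Gm47283, Gm21887 and Mid1 were in part named after their values were seen. Some list members are not reported here. Members and lists were chosen with earlier results of these data known.

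Replicates differed by more than sampling noise in all 4 groups (per-gene squared difference over counting error, median 1.59 to 2.45, against 0.455 for noise). The labels do not say whether equal replicate numbers pair libraries. Deviations of libraries with equal numbers correlated at 0.0206 in males and 0.032 in females, which cannot exclude a pairing. The fit was tested on simulated data. The alternatives tried were no filter, DESeq2 1.42.0, DESeq2 size factors within edgeR, a replicate block, 4 group means, all 16 libraries in the fit, protein-coding genes alone and leaving out each library.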

Additional observations from a re-analysis of the deposited data

Results flagged for a closer look

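In 11 of the 252 groups of 4 libraries examined for the genes and measures named here, 1 library lay apart from the other 3 by Dixon's gap ratio. Chance flags about 1 group in 20, which is no fewer than were found. Male maternal replicate 1 accounts for 6 of the 11. It had 111 CPM of Atf4 (78.4 to 80.7 in the other maternal libraries), 70 CPM of Phgdh (49.1 to 49.8), 25 CPM of Mthfd2 (14.7 to 16.2), 84.2 CPM of Eomes (60.5 to 62), 14.4 CPM of Aldh1a2 (9.73 to 10.4) and 55.8 CPM of Lss (66.6 to 68.4).

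Male paternal replicate 1 had 125 CPM of the imprinted gene Mest (152 to 157 in the other paternal libraries) and 70 CPM of Lss (72.9 to 73.3), and male paternal replicate 2 had 35.3 CPM of Igfbp3 (42.6 to 43.5). Female paternal replicate 1 had 84.6 CPM of the layer 4 factor gene Rorb (120 to 124), and female maternal replicate 1 had 16 CPM of Pcdhb18 (14.8 to 14.9). No gene passed the adjusted threshold for a difference between the sexes, and no file, column or library was left out of the tables.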

How the results depend on the processing

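Over both sexes the count of called genes was 1 in the fit reported, with DESeq2 size factors, with 4 group means and with protein-coding genes alone. It was 3 with DESeq2 (Gm47283, Rny1 and Lyve1), 55 with no filter on low counts, 2 with the replicate number as a block (Ttr and Gm47283), 0 with all 16 libraries in the fit, and 0 to 11 with each library left out. It was 11 without male paternal replicate 2 and 5 without female paternal replicate 2. In males it was 1, against 2 with DESeq2, 27 with no filter, 0 with the replicate block, 0 with all 16 libraries and 1 to 15 with each library left out. In females it was 0, against 61 with no filter, 1 with the replicate block (Ttr) and 0 to 10 with each library left out. For the sex difference it was 0, against 36 with no filter and 0 to 5 with each library left out. The cause was not tested. With 1 library left out, the remaining library of its sex and exposure was assumed to vary like the other groups. The labels do not say that equal replicate numbers pair libraries, so the block rests on an assumption.

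Gm47283 was lower after maternal exposure in every setting tried. Over both sexes it lost its call with all 16 libraries (-0.97, adjusted p = 1) and without female maternal replicate 2 (-0.92, adjusted p = 0.0715). In males it lost its call with the replicate block (adjusted p = 0.0668) and with all 16 libraries (-1.28, adjusted p = 1). Ttr was at -4.86 (adjusted p = 0.00592) with the block.

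Across 122 gene differences, 1704 values kept direction and side of the threshold, 73 crossed to a call, 4 lost one and 7 changed sign. The sign changes were Bc1 (-0.09 with 4 group means, -0.0899 with all 16 libraries, -0.0765 to 0.15 with each library left out) and Ogn (-0.42 to 0.0239 with each library left out, above 0 without female paternal replicate 1). Of the list medians, 797 values moved by less than the replicate SD of the list's median level and 10 moved further. Lower depth in males and 2 libraries per sex and exposure limit what could be seen for genes of low expression.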

Other observations

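Genes that led a single exposure against control in earlier results of these data mostly gave small differences between maternal and paternal exposure. Prox1, a homeobox factor of the hippocampus, differed by 0.11 ± 0.06, and Fat3, a giant cadherin, had 428 to 478 CPM after maternal and 364 to 442 CPM after paternal exposure (0.19 ± 0.06). The galectin gene Lgals1 had 13.6 and 11 CPM in male maternal and 7.87 and 7.24 CPM in female maternal libraries, against 17.3 and 10.7 CPM in male paternal and 12.3 and 9.44 CPM in female paternal ones (-0.36 ± 0.14). Its female groups did not overlap. Mest, a paternally expressed imprinted gene, differed by 0.14 ± 0.06 and the imprinted antisense RNA Kcnq1ot1 by 0.22 ± 0.08. Of 29 paternally expressed imprinted genes the median difference was 0.02, and of 19 maternally expressed ones 0.01. None of these genes was called by edgeR.

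Ogn, a small matrix proteoglycan of the meninges, had 20.0 and 19.2 CPM in male maternal and 9.96 and 11.5 CPM in female maternal libraries, against 18.9 and 12.7 CPM in male paternal and 20.8 and 13.8 CPM in female paternal ones. The maternal libraries lay above the paternal ones in males and below in females (0.32 in males, -0.69 in females, sex difference 1.01, edgeR adjusted p = 1). Among the other meningeal genes, Aldh1a2, which makes retinoic acid there, differed by -0.40 ± 0.14 and the transcription factor gene Foxc1 by -0.22 ± 0.09.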
